A study of Mus musculus with 2 samples.

Results

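The replication-dependent histone genes are a family of short genes, most of them a single exon, that encode the core histones H2A, H2B, H3 and H4 and the linker histone H1 packed with DNA into nucleosomes. Their transcription rises in S phase with DNA replication, and most of their mRNAs end not in a poly(A) tail but just after a conserved stem-loop that the stem-loop binding protein Slbp recognises. Heart muscle cells of the mouse leave the cell cycle in the first weeks after birth, while other cells of the heart go on dividing. The members were taken as every gene whose symbol begins with Hist1h, Hist2h, Hist3h or Hist4h and that has a protein-coding transcript. This gave 67 of 55536 annotated genes, or of 22028 protein-coding ones. Hist1h2aj, Hist1h2al and Hist3h2bb-ps have symbols of the same form but no protein-coding transcript and were not members.

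Both libraries came from hearts of 14-day-old B6CASTF1/J males, F1 animals of a cross between C57BL/6J and CAST/EiJ. Total RNA (300 ng) was depleted of ribosomal RNA, and stranded libraries with added spike-in RNAs were sequenced, so that mRNAs without a poly(A) tail could be read. The labels name 3 males, number the pieces of heart apart and give both libraries 1 donor label. Whether animals were pooled is not stated. Replicate 2 and replicate 1 form a single group, so a comparison between them is one of 2 libraries and not of conditions, and its p-values cover counting error only.

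Depth was 46391250 expected counts in replicate 2 and 39334380 in replicate 1. Heart markers matched the labelled tissue: all 8 cardiomyocyte markers were detected in both libraries. The libraries stood apart in T cell and thymus transcripts. The 10 T cell markers summed to 49.2 TPM in replicate 2 and 4.47 TPM in replicate 1, where TPM is transcript abundance corrected for length and scaled to the same total in each library. All 10 T cell markers passed the test at any ratio and 9 of them were at least 2-fold higher in replicate 2. The 10 thymocyte markers summed to 79.2 TPM in replicate 2 and 15.1 TPM in replicate 1, and 8 of the 9 tested were at least 2-fold higher in replicate 2. Rag1, the recombinase of developing lymphocytes, had 2855 counts in replicate 2 and 4 in replicate 1, and Rag2 and Ptcra, the invariant chain of the pre-T cell receptor, had 0 counts in replicate 1. The 6 B cell markers summed to 10.2 TPM in replicate 2 and 9.77 TPM in replicate 1, and none of them passed the test. In bulk RNA, fewer cells of a type and less RNA per cell cannot be told apart.

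The members lie in 4 clusters (mm10, GENCODE M21). The Hist1 cluster on chromosome 13 (chr13:21715763-23934851) holds 54 of them, the Hist2 cluster on chromosome 3 (chr3:96219865-96270132) holds 10, Hist3 on chromosome 11 holds 2 and Hist4 on chromosome 6 holds 1. Hist1 falls into 2 segments across its largest gap, 1487836 bases between neighbouring starts, with 23 members in chr13:21715763-22043676 and 31 in chr13:23531050-23934851. By type there were 6 H1, 18 H2A, 18 H2B, 12 H3 and 13 H4 genes.

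The stem-loop is the part of these mRNAs that sets them apart from others, and it was looked for in every protein-coding transcript of the members as the core CTTTT, any base, AG, with GG and any 2 bases before it and any 2 bases and CC after it. It was found in 44 members, against 52 of 58725 protein-coding transcripts of other genes (0.0885%), none of which ended within 50 bases after it. There were 6 different sequences, printed with the loop and the bases that close it in capitals and the stem in lower case.
26 members of all types but H4, among them Hist1h1c, Hist2h2aa2 and Hist1h2bg: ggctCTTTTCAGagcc
7 H4 genes, Hist1h4c, Hist1h4d, Hist1h4f, Hist1h4h, Hist1h4m, Hist1h4n and Hist4h4: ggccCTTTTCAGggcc
Hist1h1t, Hist1h2bb, Hist1h2bk, Hist1h3c, Hist1h3e and Hist1h3f: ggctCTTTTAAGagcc
Hist1h4i and Hist2h4: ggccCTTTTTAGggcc
Hist1h4b and Hist1h4j: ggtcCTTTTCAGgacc
Hist2h2ac: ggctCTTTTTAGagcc
All 11 H4 genes with a match had a stem of ggcc or ggtc, and all 33 other members with a match had ggct.

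How far the annotated transcript runs past the stem-loop differed between members. In 18 members every protein-coding transcript ended within 50 bases after it, and the same held for 1 of the 2 transcripts of Hist1h2bp. Over these 19 the end lay 3 to 46 bases past the stem-loop (median 31). In 25 members at least 1 transcript went on further, by 51 to 4884 bases (median 454), the longest being Hist1h1d. The remaining 23 had no match. In 11 of these the model holds coding sequence only and so has no 3′ end to search.

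Promoters of 62 members were found in the RefSeq table (GRCm38.p6, the same build as mm10; 250 bases before to 50 after the start), and 5 motifs were searched on both strands. The CCAAT box, bound by NF-Y, was in 53 of 62 (85.5%, against 37.4% of all 32851 promoters), including every H1, H2A, H2B and H3 promoter but only 3 of 12 H4 promoters. TATAAA, the TATA box, was in 35 of 62 (56.5%, against 13.6%). The octamer ATTTGCAT, bound by POU factors such as Oct-1, was in 13 of 62 (20.97%, against 1.74%), namely 7 of 18 H2A and 6 of 16 H2B promoters and no other. The E2F motif TTTCGCGC was in 9 of 62 (14.5%, against 0.323%), again only H2A (5) and H2B (4) promoters. The H1 box AAACACA was in 5 of 6 H1 promoters and in 9 of 62 in all (14.5%, against 7.18%). In the promoters shown next no 2 matches share bases. H2A and H2B promoters of a divergent pair overlap, so their matches are not independent.

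Promoters are shown for members that the values below turn on, with the matches in capitals on the strand of the gene: the H3 gene with the largest ratio between the libraries among well-covered members, the more abundant of the H4 genes called at least 2-fold higher, the H1 gene whose ratio lay nearest to 1, and an H2B gene of a divergent pair that carries the octamer.
Hist1h3h, chr13:21717378-21717677, + strand: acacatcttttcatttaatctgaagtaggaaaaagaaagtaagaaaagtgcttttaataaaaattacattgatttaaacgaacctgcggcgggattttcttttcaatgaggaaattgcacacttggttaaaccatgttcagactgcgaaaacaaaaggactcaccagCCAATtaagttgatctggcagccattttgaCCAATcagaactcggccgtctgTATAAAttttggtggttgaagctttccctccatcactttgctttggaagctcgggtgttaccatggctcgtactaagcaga
Hist1h4k, chr13:21750504-21750803, - strand: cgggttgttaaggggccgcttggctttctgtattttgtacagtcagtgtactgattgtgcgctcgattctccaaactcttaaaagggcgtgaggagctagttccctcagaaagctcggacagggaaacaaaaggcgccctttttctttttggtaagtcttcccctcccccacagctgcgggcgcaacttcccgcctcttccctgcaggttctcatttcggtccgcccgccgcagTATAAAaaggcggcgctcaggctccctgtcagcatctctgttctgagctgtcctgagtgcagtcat
Hist1h1c, chr13:23738557-23738856, + strand: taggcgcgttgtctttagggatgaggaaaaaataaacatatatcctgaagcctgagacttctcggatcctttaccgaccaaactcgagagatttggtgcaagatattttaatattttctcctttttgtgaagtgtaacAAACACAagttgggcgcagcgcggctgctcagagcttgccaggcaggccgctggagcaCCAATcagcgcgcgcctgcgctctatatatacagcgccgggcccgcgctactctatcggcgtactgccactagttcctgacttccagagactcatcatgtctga
Hist1h2bk, chr13:22035571-22035870, + strand: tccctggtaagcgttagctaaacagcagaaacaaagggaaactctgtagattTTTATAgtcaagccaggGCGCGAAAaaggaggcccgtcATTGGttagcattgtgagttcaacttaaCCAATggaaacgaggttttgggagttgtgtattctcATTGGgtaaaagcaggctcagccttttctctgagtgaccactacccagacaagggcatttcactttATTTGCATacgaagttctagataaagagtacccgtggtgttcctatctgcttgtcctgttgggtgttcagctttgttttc
Counting from the RefSeq start, the Hist1h3h promoter has TATAAA at position -31 and CCAAT at -53 and -83. The GENCODE start lies 31 bases from the RefSeq start for Hist1h3h, 48 for Hist1h4k, 1 for Hist1h1c and 49 for Hist1h2bk. Hist1h4k has TATAAA alone, at -16. Hist1h1c has CCAAT at -54 and the H1 box at -112, with no TATAAA. Hist1h2bk has the octamer at -30, CCAAT at -132 and, read on the opposite strand, which is that of its partner Hist1h2ah, CCAAT at -96 and -160, the E2F motif at -181 and TATAAA at -198.

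As to level, the family was expressed in both libraries. Of 67 members, 62 reached 1 TPM in both libraries and 5 were under 1 TPM in both. Summed over the members, the family made 2665 TPM in replicate 2 and 1612 TPM in replicate 1 (2139 ± 745, SD, n = 2), which is 0.267% of all TPM in replicate 2 and 0.161% in replicate 1. The median member stood at 28.6 TPM in replicate 2 and 16.6 TPM in replicate 1. A total of 61 members had the higher TPM in replicate 2. By summed RSEM-style TPM the types kept 1 order in both libraries, H4, H2A, H2B, H3 and H1, and neighbours in this order, H3 and H1 apart, differed by less than the libraries did. By kallisto-style TPM H2A came before H4 in both libraries, at 941 and 632.5 TPM in replicate 2 and 547 and 463 TPM in replicate 1. H4 was thus not first in both kinds of table. TPM values of single genes below are RSEM-style unless named otherwise.

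**Figure D1:**
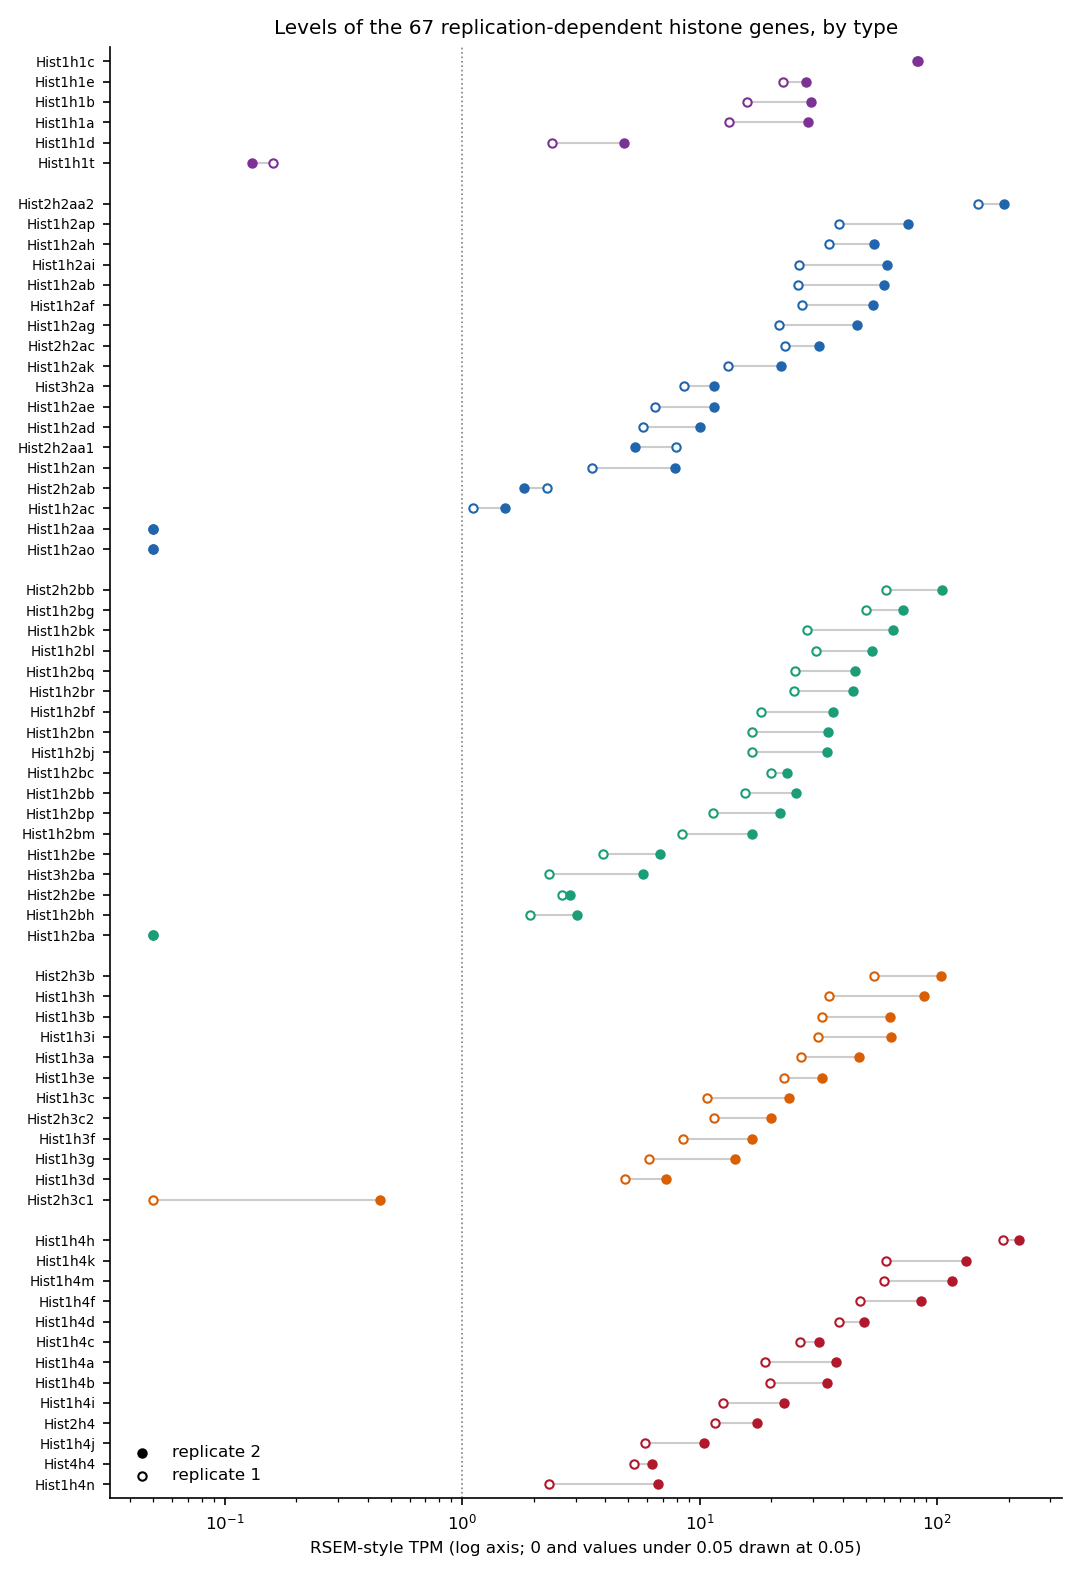
RSEM-style TPM (log axis) of each of the 67 members, grouped by type and sorted by mean TPM, with filled points for replicate 2, open points for replicate 1 and a dotted line at 1 TPM. Hist1h4h and Hist2h2aa2 stand highest, the filled point lies to the right in most rows, and the points of Hist1h1c overlap at 82.8 and 82.1 TPM.

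H4 genes, which encode the core histone partner of H3, summed to 769 TPM in replicate 2 and 498 TPM in replicate 1, and all 13 were detected. Hist1h4h (ENSMUSG00000060981.7, chr13:23531050-23531519) was the most abundant member of the family, at 221 TPM in replicate 2 and 189 TPM in replicate 1. Hist1h4k followed with 132 TPM in replicate 2 and 60.9 TPM in replicate 1, and Hist1h4m with 115.0 TPM in replicate 2 and 59.6 TPM in replicate 1. Hist1h4f had 85.5 TPM in replicate 2 and 47.3 TPM in replicate 1. Hist1h4d had 49.0 TPM in replicate 2 and 38.5 TPM in replicate 1. Between the libraries Hist1h4h differed by a ratio of 1.15 and Hist1h4k by a ratio of 2.13, both by RSEM-style counts. The kallisto-style counts did not show this contrast. Hist1h4k had 78.2 of them in replicate 2 and 61.4 in replicate 1, and was not called at 2-fold. Hist1h4h had 2283 in replicate 2 and 1513 in replicate 1.

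H2A genes summed to 645 TPM in replicate 2 and 395 TPM in replicate 1. Hist2h2aa2 (ENSMUSG00000063954.7, chr3:96239749-96240276) led them with 192 TPM in replicate 2 and 148 TPM in replicate 1, but it cannot be told from its copy Hist2h2aa1 by sequence. Each of its stretches of 100 bases also occurs in a gene outside the family. Hist1h2ap had 75.2 TPM in replicate 2 and 38.7 TPM in replicate 1. Hist1h2ah had 54.1 TPM in replicate 2 and 35.2 TPM in replicate 1. By the mean of both libraries these 3 were followed by Hist1h2ai, with 61.5 TPM in replicate 2 and 26.3 TPM in replicate 1, and Hist1h2ab, with 59.8 TPM in replicate 2 and 25.9 TPM in replicate 1. Hist1h2aa, known as a testis-specific H2A, was listed at 0 in both libraries. Hist1h2ao was listed at 0 too, but 92.7% of its stretches of 100 bases also occur in its near copy Hist1h2ap. Its 0 and the value of Hist1h2ap thus depend on how shared reads were assigned. Kallisto-style counts of Hist1h2ao were 5.93 in replicate 2 and 10.9 in replicate 1.

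H2B genes, whose products pair with H2A, summed to 596 TPM in replicate 2 and 338 TPM in replicate 1. The highest by RSEM-style TPM was Hist2h2bb, at 105 TPM in replicate 2 and 60.6 TPM in replicate 1. Its kallisto-style TPM was 34.6 in replicate 2 and 22.2 in replicate 1. That was below Hist1h2bf, at 101 kallisto-style TPM in replicate 2 and 67.5 in replicate 1. Hist1h2bg had 71.6 TPM in replicate 2 and 50.2 TPM in replicate 1, and Hist1h2bk 65.5 TPM in replicate 2 and 28.3 TPM in replicate 1. Hist1h2bl had 53.3 TPM in replicate 2 and 31.03 TPM in replicate 1, but kallisto-style TPM of 5.54 in replicate 2 and 7.68 in replicate 1. Hist1h2bq had 44.9 TPM in replicate 2 and 25.2 TPM in replicate 1, shared with its copy Hist1h2br. Its kallisto-style TPM was 0.129 in replicate 2 and 0.102 in replicate 1. Hist1h2ba, the testis-specific H2B, had 0 expected counts in both libraries, and of the 5 testis germline markers Tnp1, Prm1 and Acrv1 also had 0.

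H3 genes summed to 481 TPM in replicate 2 and 245 TPM in replicate 1. Hist2h3b led at 104 TPM in replicate 2 and 54.3 TPM in replicate 1. Hist1h3h had 88.2 TPM in replicate 2 and 35.1 TPM in replicate 1, and Hist1h3b 63.2 TPM in replicate 2 and 32.9 TPM in replicate 1. Hist1h3i had 64.1 TPM in replicate 2 and 31.5 TPM in replicate 1, and Hist1h3a 46.8 TPM in replicate 2 and 26.7 TPM in replicate 1. All 5 were higher in replicate 2 at any ratio.

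H1 genes, the linker histones that bind where DNA enters and leaves the nucleosome, summed to 174 TPM in replicate 2 and 136 TPM in replicate 1. Hist1h1c was the highest, at 82.8 TPM in replicate 2 and 82.1 TPM in replicate 1. Hist1h1b had 29.5 TPM in replicate 2 and 15.9 TPM in replicate 1, Hist1h1a had 28.6 TPM in replicate 2 and 13.2 TPM in replicate 1, and Hist1h1e had 28.1 TPM in replicate 2 and 22.5 TPM in replicate 1. Hist1h1d had 4.81 TPM in replicate 2 and 2.38 TPM in replicate 1, spread over a model of 7425 bases. Hist1h1t, the testis linker histone, had 4 counts in each library.

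Beside these stand the replacement histones, variants most of which are made throughout the cell cycle from polyadenylated mRNAs. H3f3a and H3f3b, both of which encode H3.3, summed to 371 TPM in replicate 2 and 363 TPM in replicate 1. The H3 members thus stood at 1.30 times the H3.3 genes in replicate 2 and 0.674 times in replicate 1, so the order of the sums turned round between the libraries. The H2A members stood at 5.14 times the 6 listed H2A variant genes in replicate 2 and 3.53 times in replicate 1. The H1 members stood at 3.82 times H1f0 and H1fx in replicate 2 and 2.41 times in replicate 1.

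Between the libraries, the family was higher in replicate 2. Summed over members the expected counts were 48710 in replicate 2 and 26657 in replicate 1, a ratio of 1.5 after TMM scaling (exact 95% interval 1.48 to 1.52). By type the ratio of summed counts was 1.86 (1.79 to 1.94) for H3, 1.64 (1.578 to 1.695) for H2B, 1.55 (1.497 to 1.602) for H2A, 1.42 (1.38 to 1.47) for H4 and 1.22 (1.18 to 1.26) for H1. Of these counting intervals only those of H2B and H2A overlap. Single abundant genes weigh on these sums: Hist1h1c, at a ratio of 0.992, had 4436 of the 8987 H1 counts in replicate 2. Taken gene by gene the order differed. The median log2 ratio of tested members was 0.93 for H3, 0.87 for H1, 0.80 for H4, 0.79 for H2B and 0.74 for H2A. Of the 63 members with enough counts to be tested, 15 were at least 2-fold higher in replicate 2 and 0 at least 2-fold lower, against 2.45% and 0.753% of all 16611 genes tested. Those 15 are 23.8% of the members tested. With the adjusted p alone as the threshold 57 were higher, against 10.4% of all genes, and 1 was lower, against 11.6%. The members' median log2 ratio was 0.80, and that of all genes was -0.001. With the edgeR exact test at an assumed biological coefficient of variation of 0.2, only 1 of 63 members was higher at any ratio, against 1.16% of all genes, so the share was near the background there. The T cell and thymocyte markers moved the same way. Other markers moved too: 4 of 8 macrophage markers were higher at any ratio and 1 was lower (median log2 ratio 0.29), while 5 of 6 fibroblast (-0.27), 4 of 6 endothelial (-0.13) and 5 of 6 tested erythroid markers (-0.19) were lower. The part of any of these in the histone differences was not tested.

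**Figure D2:**
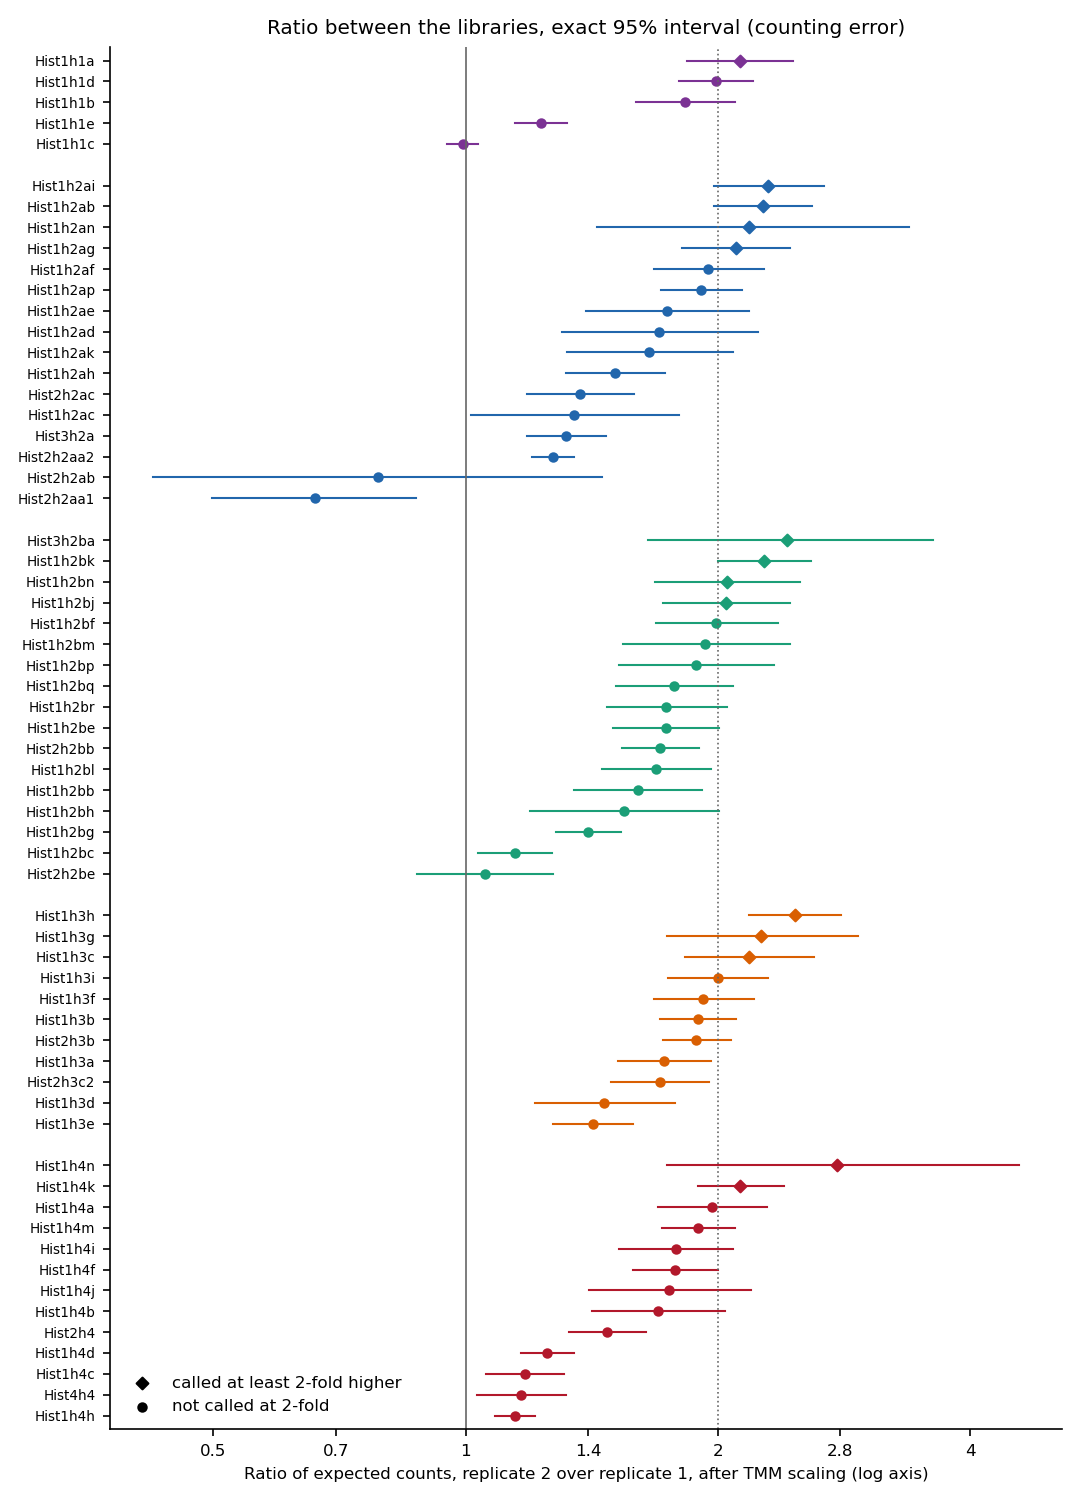
Ratio of expected counts, replicate 2 over replicate 1 after TMM scaling (log axis), for the tested members that had counts in both libraries, by type, with exact 95% intervals for counting error. Diamonds mark members called at least 2-fold higher, the dotted line marks a ratio of 2, and Hist1h1c, Hist2h2be, Hist2h2ab and Hist2h2aa1 are those at or left of 1.1.

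Among the 53 members with at least 100 counts in each library, Hist1h3h had the highest ratio. It had 1008 counts in replicate 2 and 335 in replicate 1, a ratio of 2.47 (2.18 to 2.803, exact binomial test, adjusted p = 2.19e-50). Next came the H2A gene Hist1h2ai at 2.30 (1.98 to 2.67), the H2B gene Hist1h2bk at 2.27 (2.00 to 2.59) and the H2A gene Hist1h2ab at 2.26 (1.98 to 2.59). The others of the 10 highest, Hist1h3c, Hist1h4k, Hist1h1a, Hist1h2ag, Hist1h2bn and Hist1h2bj, lay at 2.04 to 2.18. All 10 are in the Hist1 cluster, which holds 54 of the 67 members, and they include every type. The intervals of these 10 overlap, so their order is not resolved by the counts. Of the 10, Hist1h4k, Hist1h2ag and Hist1h2bn were not called at least 2-fold higher by kallisto-style counts. Hist3h2ba, outside the 53 with 36.6 counts in replicate 1, had a ratio of 2.42 (1.65 to 3.61).

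At the other end, Hist1h1c had 4436 counts in replicate 2 and 3671 in replicate 1, a ratio of 0.992 (0.949 to 1.04, exact binomial test, adjusted p = 0.859). It was the member with the most counts, and its interval leaves out the family's ratio of 1.5. Hist2h2be, an H2B known from olfactory neurons as made outside replication, had 262 counts in replicate 2 and 204 in replicate 1, a ratio of 1.05 (0.875 to 1.27). Hist1h4h and Hist1h2bc both lay at a ratio of 1.15 (1.08 to 1.21 for Hist1h4h and 1.03 to 1.27 for Hist1h2bc). Hist4h4, Hist1h4c, Hist1h1e, Hist1h4d, Hist2h2aa2 and Hist3h2a, the rest of the 10 lowest, lay at 1.17 to 1.32. Of the 10, all but Hist4h4, Hist2h2be and Hist1h1c passed the test at any ratio.

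Members with few counts widened the range. Hist2h3c1 had 28.3 counts in replicate 2 and 0 in replicate 1. It was 7.75-fold higher when 3 counts are taken as the floor of replicate 1, and the exact 95% interval of its ratio starts at 5.83. Setting it at 7.75-fold leaves every median given here as it is. By kallisto-style counts it had 0 in both libraries and was not tested. But none of its 100-base words is its own. All of them occur in the noncoding gene Gm20634, which had 178 counts in replicate 2 and 142 in replicate 1. Hist1h4n had 81.3 counts in replicate 2 and 23.5 in replicate 1, a ratio of 2.77, and with its near copy Hist1h4m 1.93 (1.75 to 2.13). Hist2h2aa1 was the only member lower at any ratio, with 94.96 counts in replicate 2 and 118 in replicate 1, a ratio of 0.661 (0.499 to 0.873). Summed with its copy Hist2h2aa2 it had 3112 counts in replicate 2 and 2065 in replicate 1, a ratio of 1.24 (1.17 to 1.31). The call for Hist2h2aa1 thus does not hold for the pair.

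By cluster, the median log2 ratio was 0.85 over the 50 tested Hist1 members, 13 of them at least 2-fold higher. It was 0.51 over the 10 Hist2 members, of which only Hist2h3c1 was at least 2-fold higher. Within Hist1, all 22 tested members of the first segment were higher at any ratio, 9 of them at least 2-fold, with a median of 0.94 and a range of 0.59 to 1.45. In the second segment 26 of 28 were higher at any ratio, 4 of them at least 2-fold, with a median of 0.77 and a range of -0.012 to 1.18. The ranges of the segments overlap.

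By 3′ end, the median log2 ratio was 0.92 over the 17 tested members whose transcripts end within 50 bases after the stem-loop, 5 of them at least 2-fold higher. It was 0.59 over the 24 tested members with a longer transcript, 3 of them at least 2-fold higher, and 0.91 over the 21 without a match, 7 of them at least 2-fold higher. Of the 10 lowest ratios named before, Hist1h1c, Hist4h4, Hist1h4c, Hist1h1e, Hist1h4d and Hist3h2a have a longer transcript, Hist2h2be and Hist1h2bc have no match and models of 2620 and 1156 bases, and Hist1h4h and Hist2h2aa2 end just after the stem-loop. The ranges, -0.60 to 1.45 for short ends and from -0.012 up for longer ones, overlap.

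The 12 divergent pairs, in which an H2A and an H2B gene are read away from each other from starts 176 to 306 bases apart, share their promoter region. Hist1h2bk stood at 65.5 TPM in replicate 2 and 28.3 TPM in replicate 1, against 54.1 TPM in replicate 2 and 35.2 TPM in replicate 1 for its partner Hist1h2ah. Hist1h2bj stood at 34.3 TPM in replicate 2 and 16.6 TPM in replicate 1, against 46.0 TPM in replicate 2 and 21.5 TPM in replicate 1 for Hist1h2ag. The order of both these genes turned in the kallisto-style tables, with 91.5 TPM for Hist1h2bj and 34.1 TPM for Hist1h2ag in replicate 2. Other pairs were uneven by RSEM-style TPM. Hist1h2bg stood at 71.6 TPM in replicate 2 and 50.2 TPM in replicate 1, against 11.5 TPM in replicate 2 and 6.49 TPM in replicate 1 for Hist1h2ae, but kallisto-style TPM in replicate 2 was 35.2 for Hist1h2bg and 66.4 for Hist1h2ae. Hist2h2ac stood at 31.7 TPM in replicate 2 and 22.8 TPM in replicate 1, against 2.83 TPM in replicate 2 and 2.64 TPM in replicate 1 for Hist2h2be. Hist1h2bc stood at 23.3 TPM in replicate 2 and 20.03 TPM in replicate 1, against 1.52 TPM in replicate 2 and 1.11 TPM in replicate 1 for Hist1h2ac. In these 2 pairs the lower gene has the longer model. Hist2h2be has 2620 bases against 520 for Hist2h2ac, and Hist1h2ac has 2482 against 1156 for Hist1h2bc. By counts in replicate 2 both pairs were less uneven, at 489 for Hist2h2ac and 262 for Hist2h2be, and 904 for Hist1h2bc and 133 for Hist1h2ac. In the testis pair Hist1h2aa and Hist1h2ba both genes were at 0 by RSEM-style values. By kallisto-style counts Hist1h2ba had 54.2 in replicate 1 and Hist1h2aa had 1.01 in replicate 2.

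Genes that act with the histones moved less. Their counts stand against 10.4% higher and 11.6% lower at any ratio over all 16611 genes tested. Of 20 tested genes of histone mRNA processing, 6 were higher at any ratio, 2 lower and 0 at least 2-fold, with a median log2 ratio of 0.087. Slbp, which binds the stem-loop, was higher at 9.11 TPM in replicate 2 and 6.88 TPM in replicate 1, a ratio of 1.33 (adjusted p = 0.00044, exact binomial test). E2f1, an activator of S phase genes, was higher at a ratio of 1.38 (adjusted p = 0.0483, exact binomial test). Npat, the coactivator of histone gene transcription, was lower by TMM-scaled counts, at a ratio of 0.857 (adjusted p = 0.0296, exact binomial test). It had 663 counts in replicate 2 and 635 in replicate 1. Its TPM was nearly level, at 3.40 in replicate 2 and 3.48 in replicate 1. Of 17 histone chaperones, 3 were higher and 1 lower at any ratio, with a median of 0.038. Chaf1a, the large subunit of chromatin assembly factor 1, was higher at a ratio of 1.49 (adjusted p = 0.00464, exact binomial test).

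Of 30 S phase genes, 18 were higher at any ratio and 0 lower, against 10.4% and 11.6% of all genes tested. Their median log2 ratio was 0.41. Against 2.45% of all genes, 1 was at least 2-fold higher. That was Cdc6, a loader of the replicative helicase, with 95 counts in replicate 2 and 24 in replicate 1, a ratio of 3.25. Mcm5, a subunit of that helicase, lay at 1.87 and Uhrf1, which reads hemimethylated DNA at the fork, at 1.97. Of 20 genes of G2 and M phase, 16 were higher at any ratio and 0 lower, with a median of 0.44, Top2a at 1.79 among them. Of 11 replacement histones, 2 were higher, H2afx at a ratio of 1.42 and H2afz at 1.17, and 2 lower, H1f0 at 0.795 and H3f3b at 0.924, with a median of 0.053. H2afx, whose product marks DNA breaks when phosphorylated, also makes an mRNA that ends at a stem-loop.

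**Figure D3:**
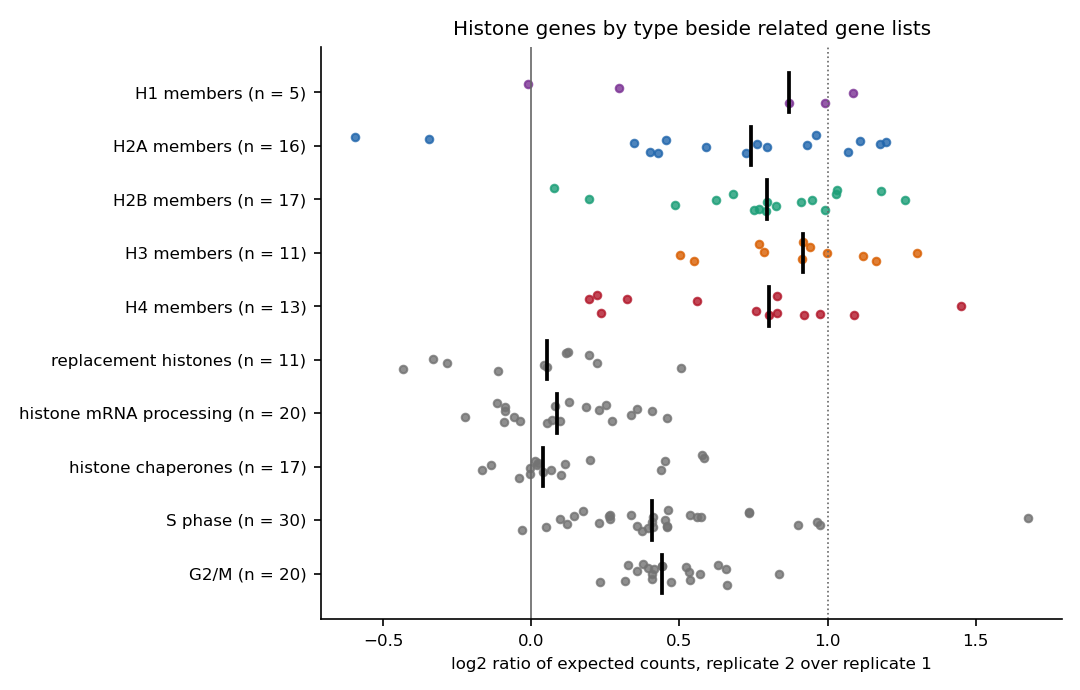
Log2 ratio of expected counts, replicate 2 over replicate 1, of each tested member by type and of each tested gene of 5 related lists (points, spread at random within a row), with the row's median as a black bar. Hist2h3c1, with 0 counts in replicate 1, is not drawn. The member medians lie between 0.74 and 0.92, those of the S phase and G2/M lists at 0.41 and 0.44 and the others near 0.

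Histone genes are nearly alike in their coding sequence, so their counts depend on how shared reads were assigned. Of all 100-base words in a member's transcripts, the median member had 65.7% that occur in no other gene. For 25 members it was under 50%, for Hist2h2aa2, Hist1h2bq and Hist2h3c1 it was 0%, and for 7 it was 100%. Words were shared with 14 genes outside the family, among them the noncoding gene Gm20634, which shares most with Hist2h3c1, and the pseudogene Hist1h2aj. Abundant members of Hist2 share such words too. Those found in members only were 22.9% for Hist2h3b and 54.6% for Hist2h2bb, the highest H3 and H2B genes by RSEM-style TPM. Hist2h2bb shares 128 words with the noncoding gene Gm42743. The members with under 50% own words had 10 of 24 tested at least 2-fold higher in replicate 2 and a median log2 ratio of 0.95. Those with more had 5 of 39 at least 2-fold higher and a median of 0.76.

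The 2 kinds of deposited table, each made for both libraries, gave the family different counts. Kallisto-style counts summed over the members were 66.5% of the RSEM-style counts in replicate 2 and 68.5% in replicate 1. Of the 62 detected members 31 (50%) had under 50% of their RSEM-style counts in the kallisto-style tables, against 70 of 11359 other detected protein-coding genes (0.616%). Among genes with a length under 700 bases these were 24 of 40 members (60.0%) and 42 of 356 other genes (11.8%), so that members stood apart from genes of like length too. Both kinds describe the same libraries, and no test was made of their difference.

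H4 genes differed most, with kallisto-style counts at 33.0% of the RSEM-style counts in replicate 2 and 36.2% in replicate 1, while H1 genes kept 89.1% in replicate 2 and 89.5% in replicate 1. In the first segment of Hist1 the share was 31.5% in replicate 2 and 31.8% in replicate 1, and in the second segment 83.4% in replicate 2 and 81.6% in replicate 1. The 9 detected members whose model holds coding sequence only all had under 50%, with a median of 25.9%. In TPM, for which the kallisto-style tables use shorter effective lengths, the sums were closer. Summed TPM was 2665 RSEM-style and 2946 kallisto-style in replicate 2, and 1612 RSEM-style and 1794 kallisto-style in replicate 1. As means of both libraries, RSEM-style TPM summed to 2139, against 1589 when kallisto-style counts were divided by the RSEM-style effective lengths. The median log2 ratio of RSEM-style over kallisto-style TPM was 0.044 over detected members and -0.26 over other detected protein-coding genes. Only 39 of 62 members (62.9%) lay within 2-fold between the tables, against 97.6% of the other genes.

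**Figure D4:**
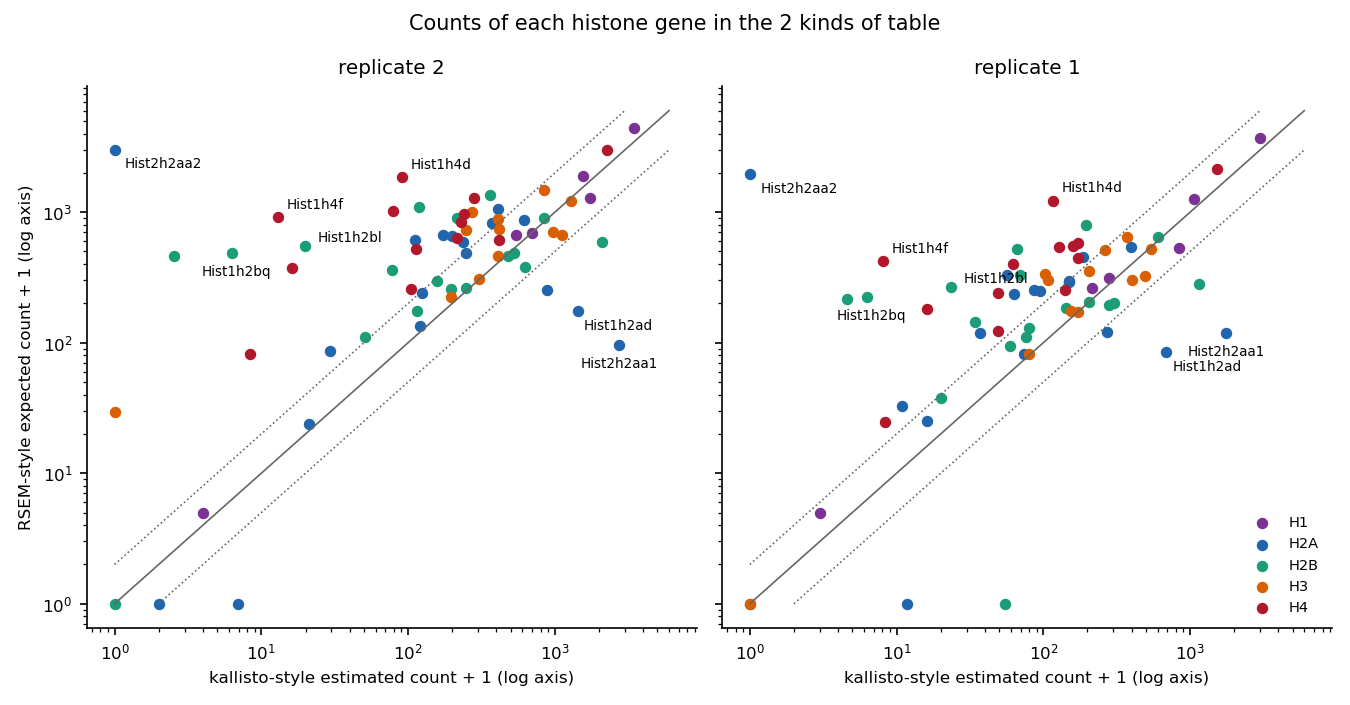
RSEM-style expected counts against kallisto-style estimated counts (1 added to each, log axes) of the 67 members in replicate 2 and replicate 1, coloured by type, with a solid line at equal counts and dotted lines at 2-fold. Most points lie on or above the solid line, and Hist2h2aa2 and Hist2h2aa1 lie beyond the dotted lines on opposite sides in both libraries.

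The copies Hist2h2aa1 and Hist2h2aa2 showed both extremes. Hist2h2aa2 had 3018 RSEM-style counts and 0 kallisto-style counts in replicate 2, and 1947 RSEM-style and 0 kallisto-style counts in replicate 1. Hist2h2aa1 had 94.96 RSEM-style and 2741 kallisto-style counts in replicate 2, and 118 RSEM-style and 1760 kallisto-style counts in replicate 1. Summed over both, the tables came together at 3112 RSEM-style and 2741 kallisto-style counts in replicate 2. They did so in replicate 1 as well, at 2065 RSEM-style and 1760 kallisto-style counts. The pair sum does not remove sharing with genes outside the family. Of the 100-base words of Hist2h2aa2 0% occur in members only, and of those of Hist2h2aa1 11.7%. For another pair of copies the sum did not bring the tables together. Hist1h2bq and Hist1h2br had, summed, 943 RSEM-style and 6.90 kallisto-style counts in replicate 2, and 441 RSEM-style and 8.90 kallisto-style counts in replicate 1.

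Among the 5 detected members most in favour of the RSEM-style tables were also 2 H4 genes that share fewer 100-base words. Hist1h4f, with 81.8% own words of 100 bases and 46.8% of 31 bases, had 916 RSEM-style and 12.1 kallisto-style counts in replicate 2, and 423 RSEM-style and 7.13 kallisto-style counts in replicate 1. Hist1h4d, with 100% own words of 100 bases and 85.3% of 31 bases, had 1865 RSEM-style and 90.0 kallisto-style counts in replicate 2, and 1223 RSEM-style and 116 kallisto-style counts in replicate 1. On the other side, Hist1h2ad had 174 RSEM-style and 1433 kallisto-style counts in replicate 2, and 83.5 RSEM-style and 686 kallisto-style counts in replicate 1. Among detected members, Hist1h2ae, Hist1h2be and Hist1h2bb followed it, with log2 ratios of RSEM-style over kallisto-style TPM of -2.19, -2.05 and -1.79.

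The family was higher in replicate 2 in both kinds of table. By kallisto-style counts its summed ratio was 1.45 (1.43 to 1.48), and 15 of 58 tested members were at least 2-fold higher in replicate 2, as by RSEM-style counts. Of these 9 were the same genes, Hist1h1a, Hist1h2ab, Hist1h2ai, Hist1h2bj, Hist1h2bk, Hist1h3c, Hist1h3g, Hist1h3h and Hist3h2ba. Called by RSEM-style but not by kallisto-style counts were Hist1h2ag, Hist1h2an, Hist1h2bn and Hist1h4k. Called the other way were Hist1h1b, Hist1h2ae, Hist1h2af, Hist1h2ak, Hist1h2bm and Hist1h4a. Hist1h4n and Hist2h3c1, called by RSEM-style counts, were not tested by kallisto-style counts. Hist1h4d, Hist1h2bl and Hist1h4b had RSEM-style log2 ratios of 0.32, 0.75 and 0.76, against kallisto-style ones of -0.65, -0.56 and -0.29. The testis gene Hist1h2ba had 0 RSEM-style counts in both libraries, against 0 kallisto-style counts in replicate 2 and 54.2 in replicate 1.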

How the data were processed

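Per the file headers, the authors deposited, for each of the 2 libraries, gene and transcript tables whose columns are named as RSEM names them (expected counts, TPM and, per transcript, the percent of its gene's TPM) and a kallisto-style transcript table (estimated counts and TPM). The tools are read from the columns. Their versions were not given in the sources used here. According to the authors' readme, assembly mm10 and annotation M21 were used.

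RSEM-style gene values were the main ones, and kallisto-style transcripts were summed per gene. Expected counts were rounded and compared by a 2-sided exact binomial test against TMM-scaled library sizes (edgeR 4.0.16, R 4.3.3), for genes that had 10 or more counts in both libraries or a total of 20 or more, with Benjamini-Hochberg adjustment over all genes tested. Genes were called at an adjusted p of 0.05, at any ratio or at a log2 ratio of at least 1. Intervals are exact (Clopper-Pearson, 95%) and cover counting error only. Log2 ratios have 0.5 added to each count. TPM ratios between tables have a pseudocount of 0.1. DESeq2 1.42.0 gave alternative size factors. The test was tested on simulated counts.

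RSEM-style effective length was 99 bases below length in both libraries, and kallisto-style effective length up to 336.1 bases below it in replicate 2 and 332.1 in replicate 1. Transcript sequences and models came from GENCODE M21, promoters from RefSeq. The members, lists and markers were chosen with earlier results of these data known. Named genes are the 5 highest per type, the 10 highest and 10 lowest ratios, the 5 detected members most unlike between tables in each direction, members at 0, divergent pairs and list genes. Hist2h3c1, Hist1h4n, Hist2h2aa1 and Hist3h2ba were singled out after their values were seen. Ars2 and Spt2 were not found under these symbols.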

Additional observations from a re-analysis of the deposited data

Results flagged for a closer look

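Hist1h2al, annotated as a processed pseudogene of the H2A family and outside the comparisons, had 401.57 expected counts in replicate 2 and 251.1 in replicate 1, above the 3 counts taken as the floor. Its kallisto-style count was 0 in both libraries. Hist3h2bb-ps, a pseudogene of the H2B family, had 22.65 expected counts in replicate 2 and 13.36 in replicate 1, with kallisto-style counts of 24.1 in replicate 2 and 13.2 in replicate 1.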

How the results depend on the processing

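No paired analysis was possible because there is only 1 group. With 1 library left out no ratio between libraries can be had.

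The count of 15 members at least 2-fold higher stayed between 14 and 20 under every other scaling, filter and table and with the edgeR exact test at an assumed BCV of 0.1. At an assumed BCV of 0.2 it was 1, and with the adjusted p alone 57. The count of lower members was 0 except for 1 (Hist1h2ba) by kallisto-style counts and 1 (Hist2h2aa1) with the adjusted p alone. Combining the adjusted p alone with each other setting was chosen after seeing the data. Members higher were then 56 to 58 under the other scalings and filter (6.38% to 15.6% of all genes), 45 of 58, with 2 lower, by kallisto-style counts (9.48%), 36 of 63, with 0 lower, at a BCV of 0.1 (2.2%), and 1 of 63, with 0 lower, at 0.2 (1.16%). The summed ratio of 1.5 was 1.55 with total counts, which shift all genes by 0.047 (log2), and 1.453 with kallisto-style counts.

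Members detected were 52 to 63 under all settings tried. Median TPM was 13.45 with kallisto-style counts over the RSEM-style effective length. Leaving out a library gave 28.59 and 16.56 for the median TPM and 2665 and 1612 for the summed TPM. The median log2 ratio of the tables, 0.044, was 1.008 for counts and 0.028 to 0.043 with a library left out. Members with under 50% own words were 25 with words of 100 bases and 40 with words of 31. Which of the 2 kinds of table is nearer to the true level was not tested.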
